A study of Mus musculus with 3 samples.

Results

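Neutrophils of the ascending aorta were picked out of 3 droplet libraries by their transcripts. A barcode was kept when it held 300 to 5000 genes and at most 10% mitochondrial UMIs, and it was called a neutrophil when S100a8 and S100a9 together made up at least 50 of every 10000 UMIs, C1qa, C1qb and C1qc together less than 10, 6 smooth muscle genes (Acta2, Myh11, Tagln, Cnn1, Myl9 and Tpm2) together less than 100 and Dcn less than 20, with no UMI of Cd79a, Cd3d or Cd3g. UMIs are the molecular tags that mark single captured transcripts, and a barcode stands for the content of 1 droplet, usually 1 cell. The rule found 85 barcodes among 27230 that passed the limits, 4 of 5754 in WT, 68 of 8478 in mgR and 13 of 12998 in mgR-LOS.

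The tissue was the ascending aorta of male C57BL/6J mice at P45, without the root and the arch, digested with elastase and collagenase and treated with red cell lysis buffer. WT was a pool of 3 mice without the mutation, mgR a pool of 3 mice homozygous for the hypomorphic Fbn1 allele mgR, a model of Marfan syndrome in which less fibrillin-1 is made in every tissue, and mgR-LOS a pool of 4 Fbn1 mgR/mgR mice given losartan, a blocker of the angiotensin II type I receptor, at 0.6 g/L in drinking water from P16. The labels do not say whether the mgR mice of this library drank vehicle. Each group was 1 library of pooled animals, so genotype or treatment, the animals and the library cannot be told apart, no test between groups was possible, and all intervals below are 95% exact intervals that cover counting error only.

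Neutrophils are short-lived granulocytes that are made in the bone marrow, circulate in blood and enter inflamed tissue. They make their granule proteins (lactoferrin, cathelicidin, gelatinases) in sequence before they leave the marrow, carry large amounts of the calcium-binding pair S100A8/S100A9, and follow chemokines of the CXCL family through the receptor CXCR2. In inflamed tissue they switch on genes that depend on NF-kB, such as Il1b, Cxcl2 and Tnf, and genes that respond to interferon, such as Rsad2, Ifit1 and Cxcl10.

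The barcodes were shallow. Their median depth was 2864.5 UMIs in WT, 2136 in mgR and 1607 in mgR-LOS, against 13270.5, 12023.5 and 8246.5 over all passing barcodes, and their summed depth was 16322, 170577 and 21180 UMIs. The median number of genes per neutrophil barcode was 1068 in WT, 860 in mgR and 819 in mgR-LOS, and the median mitochondrial share was 1.14%, 0.363% and 0.710%. Some barcodes stood apart from the rest of their library. In WT, 1 barcode held 7978 of the 16322 neutrophil UMIs, against 2615, 2733 and 2996 UMIs in the others. In mgR, a pair of barcodes with 3980 and 4010 UMIs differed by about as much as sampling noise over 276 genes, with a chi-square of 1.06 per degree of freedom against a median of 4.54 over the 2278 pairs of mgR neutrophils, although 12 of the 16 bases of their barcodes differed. The deepest mgR barcode, with 13513 UMIs, held 366 of the 470 Apoe UMIs and 510 of the 579 Lyz2 UMIs of the mgR neutrophil barcodes. A doublet caller marked 0 of 4 neutrophil barcodes in WT, 3 of 68 in mgR and 7 of 13 in mgR-LOS, and they were kept. Between 22 and 46 barcode sequences were shared by each pair of libraries, and 0 of them belonged to a neutrophil.

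S100a8 and S100a9 encode calcium-binding proteins and were the genes of the rule. Levels are given as CPM, the UMIs of a gene summed over the neutrophil barcodes of a library and scaled to 1000000 neutrophil UMIs. S100a8 was at 102806 CPM in WT, 26393 in mgR and 38338 in mgR-LOS, and S100a9 at 126945, 34260 and 57885 CPM. The barcodes were selected on these levels, which are given as a description. The lowest S100a8 plus S100a9 level inside the rule was 272 per 10000 UMIs in WT, 50.7 in mgR and 93.3 in mgR-LOS, and the highest outside it among barcodes that met the other limits was 0, 47.1 and 36.2. In mgR 10 barcodes lay between 50 and 100 per 10000 UMIs, close to the limit. Neutrophil barcodes held 99.7% of all S100a8 UMIs of passing barcodes in WT, 88.1% in mgR and 89.8% in mgR-LOS.

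Genes that the rule did not use also fitted the label. Of 6 other neutrophil genes (Csf3r, Cxcr2, Retnlg, Mmp9, Il1r2 and Hdc), at least 3 were detected in 4 of 4 barcodes in WT, 63 of 68 in mgR and 13 of 13 in mgR-LOS. Among barcodes with myeloid genes, little C1q and less S100a8 and S100a9 (C1q-low myeloid), 0 of 15, 9 of 307 and 1 of 114 reached 3. Csf3r, the receptor for G-CSF, was at 613 CPM in WT, 1085 in mgR and 2455 in mgR-LOS, and Cxcr2, the receptor for CXCL1 and CXCL2, at 245, 874 and 1133 CPM. Cxcr2 was at 0, 4.75 and 2.10 CPM in C1q-low myeloid barcodes, so that its neutrophil level summed over the libraries was 220-fold higher (128 to 410). Hdc, which makes histamine, was at 1899, 2304 and 2125 CPM, nearly level across the libraries. The 15 genes with the highest ratio to C1q-low myeloid barcodes included Ngp, Camp, Ltf and Lcn2 (granule proteins), Retnlg, Mmp9, the IL-36 family cytokine Il1f9 at 235 CPM and the protease gene Asprv1 at 649 CPM.

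Markers of other cells were low in most lists. No UMI of Mpo, Elane, Prtn3 or Ctsg, which promyelocytes of the marrow make, was found in any of the 3 libraries, and Mki67 and Top2a, markers of dividing cells, gave 1 UMI each in mgR and 0 elsewhere. Of 8 T and NK cell markers, 1 was detected in mgR, with 1 UMI, and 0 in the other libraries, and of 8 markers of eosinophils, basophils and mast cells 2 were detected in mgR with 2 UMIs in all and 1 in mgR-LOS with 3 UMIs of Kit. The 8 macrophage markers summed to 6127 CPM in WT, 6261 in mgR and 992 in mgR-LOS, with Lyz2 the most abundant in each and Pf4 and Ms4a7 at 0 in all. The deepest mgR barcode gave 82.7% of the mgR sum, and 1 WT barcode gave 84% of the WT sum. The 8 monocyte markers summed to 1164, 2603 and 283 CPM, with F13a1 at 0 in all, and the most abundant were Ly6c2 in WT, Plac8 in mgR and Fn1 in mgR-LOS. The 8 fibroblast markers summed to 368, 768 and 1133 CPM, and 7 smooth muscle markers outside the rule to 123, 363 and 614 CPM. In mgR-LOS both sums lay above that of the monocyte markers. The part of all these transcripts in the results below was not tested.

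Neutrophil barcodes were most frequent in the mgR library. They made up 0.0695% (0.0189 to 0.178) of passing barcodes in WT, 0.802% (0.623 to 1.02) in mgR and 0.100% (0.0533 to 0.171) in mgR-LOS. The share in mgR was 11.5-fold that in WT (4.31 to 43.6), and the share in mgR-LOS was 0.125 of that in mgR (0.0632 to 0.228). Without called doublets the mgR-LOS share was 0.0523%, from 6 barcodes, and 0.0624 of that in mgR (0.0221 to 0.143). With a mitochondrial limit of 5% the shares were 0.176%, 1.23% and 0.169%, and mgR was 6.99-fold WT (2.61 to 26.4). The interval of mgR-LOS over WT, 1.44 (0.444 to 6.06), spanned 1. These comparisons share libraries and are not independent of each other.

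Other leukocytes were also more frequent in mgR. Macrophages (C1q-high barcodes) had a share 6.56-fold that in WT (5.33 to 8.15), C1q-low myeloid barcodes 13.9-fold (8.29 to 25.1) and lymphoid barcodes 8.10-fold (5.50 to 12.4). As a share of leukocyte barcodes, neutrophils were 2.74% of 146 in WT, 4.08% of 1666 in mgR and 1.65% of 788 in mgR-LOS. On that base the interval of mgR over WT spanned 1, at 1.49 (0.556 to 5.62), while mgR-LOS was 0.404 of mgR (0.205 to 0.738). The plot of shares shows both bases.

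**Figure D1:**
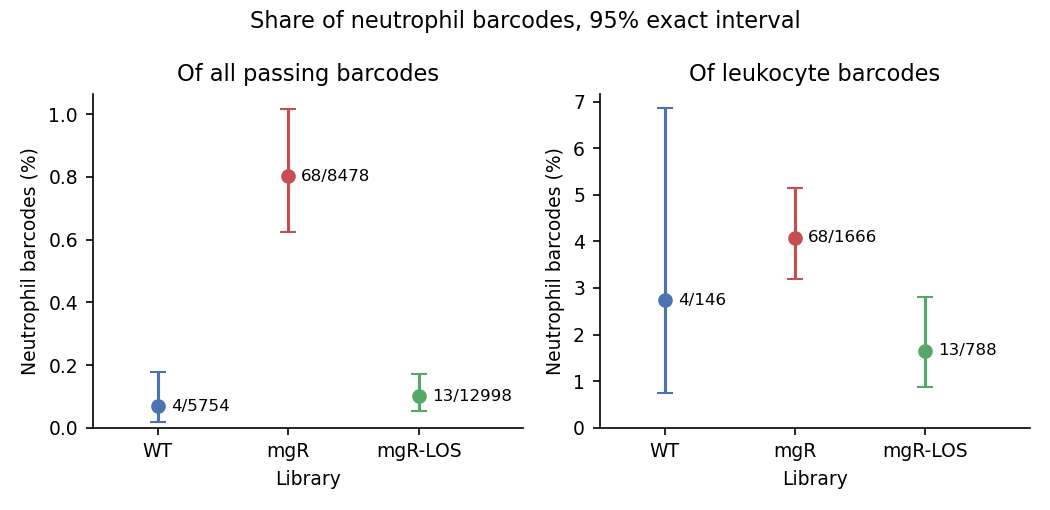
Neutrophil barcodes as a percentage of passing barcodes (left) and of leukocyte barcodes (right) in each library, with the counts beside each point and bars for the 95% exact interval. The mgR point, 0.802%, stands above the intervals of WT and mgR-LOS on the left, and on the right the WT interval spans the mgR point.

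Most cytokine and chemokine genes were at their highest level in the mgR neutrophils. Il1b, which encodes interleukin-1β, was at 796 CPM in WT, 19071 in mgR and 8451 in mgR-LOS. It was 23.9-fold higher in mgR than in WT (14.0 to 45) and in mgR-LOS was 0.443 of mgR (0.379 to 0.515). Cxcl2, a chemokine that draws neutrophils through CXCR2, was at 674, 25173 and 2125 CPM. That is 37.4-fold higher in mgR than in WT (20.9 to 74.9), and the mgR-LOS level was 0.0844 of mgR (0.0615 to 0.113). Both genes had their highest level in mgR, and 64 of 68 mgR barcodes held a Cxcl2 UMI against 7 of 13 in mgR-LOS and 3 of 4 in WT.

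Other genes of the group were detected in few barcodes outside mgR. Tnf was at 0, 1876 and 236 CPM, with UMIs in 33 of 68 mgR barcodes and in 1 barcode of mgR-LOS. Ccl4, a chemokine for monocytes and T cells, was at 0, 4919 and 1652 CPM, and all 35 of its mgR-LOS UMIs came from 1 barcode. Ccl3, its close relative, was at 0, 1964 and 189 CPM. Against a floor of 3 UMIs for the WT sum, Tnf was at least 10.2-fold higher in mgR, Ccl3 at least 10.7-fold and Ccl4 at least 26.8-fold. Without the deepest WT barcode, which held 7978 of the 16322 UMIs that set the floor, these bounds were 5.22, 5.46 and 13.7, and the exact lower limits with all barcodes were 8.25, 8.64 and 21.7. Il1a and Cxcl3 had no UMI in WT or mgR-LOS and were at 1143 and 1131 CPM in mgR. Il1rn, which encodes the antagonist of the IL-1 receptor, followed the same order at 245, 1665 and 567 CPM.

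Of 16 cytokine and chemokine genes, 13 had at least 20 UMIs over the compared libraries. Among these, Il1a, Tnf, Cxcl1, Cxcl3, Ccl3, Ccl4, Csf1 and Il6 had no WT UMI, and Il1a, Cxcl3 and Il6 none in mgR-LOS. Genes without a WT UMI passed this filter through mgR alone. Their ratios over WT are bounds, and they could not be counted as lower. Against WT, 11 of 13 were at least 2-fold higher in mgR, and 0 were at least 2-fold lower, where 26.6% of 1329 genes were that much higher and 8.95% that much lower. The median ratio was 6.79 for the list and 1.18 for all 1329 genes. In mgR-LOS, 11 of 13 were at most 0.5 of mgR and 1 was at least 2-fold higher, where 20.1% of 1393 genes were that much lower and 13.6% that much higher, and the medians were 0.158 and 0.940. The gene that went the other way was Ccl6, a constitutive chemokine of myeloid cells, at 1348 CPM in WT, 680 in mgR and 2172 in mgR-LOS. The WT sum leans on its deepest barcode, which had 0 UMIs of 10 inflammatory genes. Without the deepest barcode of each library, 9 of 12 tested genes were at least 2-fold higher in mgR than in WT, where 11.1% of all genes were that much higher and 23.9% that much lower and the median of all genes was 0.815 in place of 1.18, and the ratios were 12.9 for Il1b and 18.9 for Cxcl2. Without the deepest WT barcode alone, 9 of 13 were that much higher, where 10.6% of all genes were that much higher and 26.9% that much lower. With CPM scaled without the rule, mitochondrial, ribosomal and globin genes, which moved the median log2 ratio of all genes by -0.29, 18.9% were higher and 15.5% lower in mgR over WT, and 11 of 13 cytokine and chemokine genes were at least 2-fold higher and 1 at most 0.5 of WT. Without called doublets, 10 of 13 were at most 0.5 of mgR in mgR-LOS, where 16.7% of all genes were that much lower and 18.0% at least 2-fold higher. The 2 comparisons use the same mgR library.

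Genes under NF-kB, the transcription factor downstream of IL-1 and TNF receptors, were counted as a second group. Nfkbia, whose product holds NF-kB in the cytoplasm, was at 2696, 7140 and 2172 CPM. Ptgs2, which encodes cyclooxygenase-2, was at 61.3, 2533 and 708 CPM, and its WT value was 1 UMI, so that its ratio of 41.3 has an interval from 7.38 to 1636. Zfp36, which speeds the decay of cytokine mRNAs, was at 551, 2368 and 378 CPM, and Acod1, which makes itaconate, at 980, 3154 and 1511 CPM. Of 9 tested genes of the group, 7 were at least 2-fold higher in mgR than in WT, with a median ratio of 3.25, and 5 were at most 0.5 of mgR in mgR-LOS, with a median of 0.479, where 26.6% and 20.1% of all genes did so. Without the deepest barcodes the first count was 4 and the second 4, where 11.1% and 19.7% of all genes did so, and the ratio of Nfkbia in mgR over WT was 1.32. Without called doublets the second count was 4, where 16.7% of all genes did so. For Nfkbiz and Tnfaip2 the interval of mgR-LOS over mgR spanned 1, at 0.860 (0.607 to 1.19) and 1.18 (0.890 to 1.55). Of 12 tested dissociation and immediate early genes, which also react to tissue digestion, 8 were at least 2-fold higher in mgR than in WT and 4 at most 0.5 of mgR in mgR-LOS, and 4 and 2 without the deepest barcodes, beside the same shares of all genes. Hspa1a, Hspa1b and Hsp90aa1 of this list, and Relb and Bcl3 of the NF-kB group, had no WT UMI. Any of them that was tested passed the filter through mgR alone and could not be counted as lower than WT. Ier3 rested on 1 WT UMI. Junb was at 980, 3043 and 1747 CPM, and the part of digestion in these values was not tested.

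Interferon-responsive genes also had many members at a higher level in mgR. Rsad2, which encodes the antiviral enzyme viperin, was at 368 CPM in WT, 3629 in mgR and 755 in mgR-LOS. It was 9.87-fold higher in mgR than in WT (4.51 to 27.0), and in mgR-LOS 0.208 of mgR (0.118 to 0.341). Ifit1, which binds foreign RNA, was at 184, 2503 and 283 CPM, and Cxcl10, a chemokine for T cells, at 0, 3940 and 0 CPM. Against the floor of 3 UMIs, Cxcl10 was at least 21.4-fold higher in mgR than in WT and at most 0.0360 of mgR in mgR-LOS, and the exact limits were 17.4 and 0.0443. Without the deepest WT barcode the ratio of mgR over WT was 5.05 for Rsad2, 6.96 for Ifit1 and at least 11 for Cxcl10. Gbp2, a guanylate-binding protein gene, was likewise without a UMI in the other libraries and at 1026 CPM in mgR.

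Of 15 interferon-responsive genes, 9 were at least 2-fold higher in mgR than in WT, with a median ratio of 2.52, and 10 were at most 0.5 of mgR in mgR-LOS, with a median of 0.247, against 26.6% and 20.1% of all genes. Without the deepest barcodes these counts were 8 and 10, against 11.1% and 19.7% of all genes, and without called doublets 9 and 10, against 27.0% and 16.7%. Isg15, a ubiquitin-like protein, did not follow, at 919, 1624 and 1511 CPM, with a ratio of 0.930 (0.624 to 1.34) in mgR-LOS over mgR, and Ifitm2 was at 3370, 2310 and 2974 CPM. Ifit2, Cxcl10 and Gbp2 had no UMI in WT, and Ifit3, Cxcl10 and Gbp2 none in mgR-LOS, so that these ratios are bounds. The mgR signal was uneven. The highest barcode gave 17.1% of the Cxcl10 UMIs, 30 of 68 barcodes had a Cxcl10 UMI, and 48 had one of Rsad2.

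The promoters of 4 of these genes are shown because they carry different binding site letters. They are the 250 bases before the RefSeq start on GRCm38.p6, printed 5′ to 3′ on the strand of the gene. Capitals mark matches to TTTCNNTTT, the core of the interferon-stimulated response element that interferon-activated factors bind, or to GGGANNTTC, a form of the kB site that NF-kB binds, both searched on both strands.
Rsad2 (chr12:26456453-26456702, reverse strand): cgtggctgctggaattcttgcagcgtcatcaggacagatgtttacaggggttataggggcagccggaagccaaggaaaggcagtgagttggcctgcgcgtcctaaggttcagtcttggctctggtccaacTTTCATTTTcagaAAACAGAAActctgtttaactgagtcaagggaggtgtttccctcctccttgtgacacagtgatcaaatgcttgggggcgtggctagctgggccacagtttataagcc
Ifit1 (chr19:34640639-34640888, forward strand): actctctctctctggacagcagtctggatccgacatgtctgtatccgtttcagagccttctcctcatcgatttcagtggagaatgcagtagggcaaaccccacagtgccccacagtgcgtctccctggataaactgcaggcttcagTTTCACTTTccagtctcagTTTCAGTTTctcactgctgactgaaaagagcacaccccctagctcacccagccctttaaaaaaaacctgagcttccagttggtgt
Cxcl10 (chr5:92348890-92349139, reverse strand): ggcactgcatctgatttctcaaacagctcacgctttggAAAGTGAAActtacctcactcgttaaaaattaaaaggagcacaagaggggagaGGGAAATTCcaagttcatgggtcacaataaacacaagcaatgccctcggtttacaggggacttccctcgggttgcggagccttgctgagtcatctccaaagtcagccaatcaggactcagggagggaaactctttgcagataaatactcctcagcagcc
Cxcl2 (chr5:90903649-90903898, forward strand): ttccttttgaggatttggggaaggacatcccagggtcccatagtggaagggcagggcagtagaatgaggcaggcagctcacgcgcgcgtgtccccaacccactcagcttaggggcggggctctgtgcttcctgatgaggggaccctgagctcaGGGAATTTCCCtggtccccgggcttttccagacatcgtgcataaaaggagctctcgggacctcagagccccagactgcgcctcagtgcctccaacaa

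Rsad2 and Ifit1 have 2 matches each to the response element core, and Cxcl10 has 1 together with 1 kB match. Cxcl2 has no match to the response element core, and its capitals are 1 stretch that matches the kB letters on both strands with overlap. Of 27025 genes with an entry, 10.8% hold the response element letters and 3.70% the kB letters in the same window. The letters were found in 10 and 3 of the 15 interferon-responsive genes, in 2 and 5 of the 13 cytokine and chemokine genes with an entry, in 1 and 1 of 8 NF-kB genes, and in 1 and 2 of 17 neutrophil identity genes. The promoter of Il1b (chr2:129371140-129371389, reverse strand) holds neither. A match describes the sequence, and binding was not measured here.

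**Figure D2:**
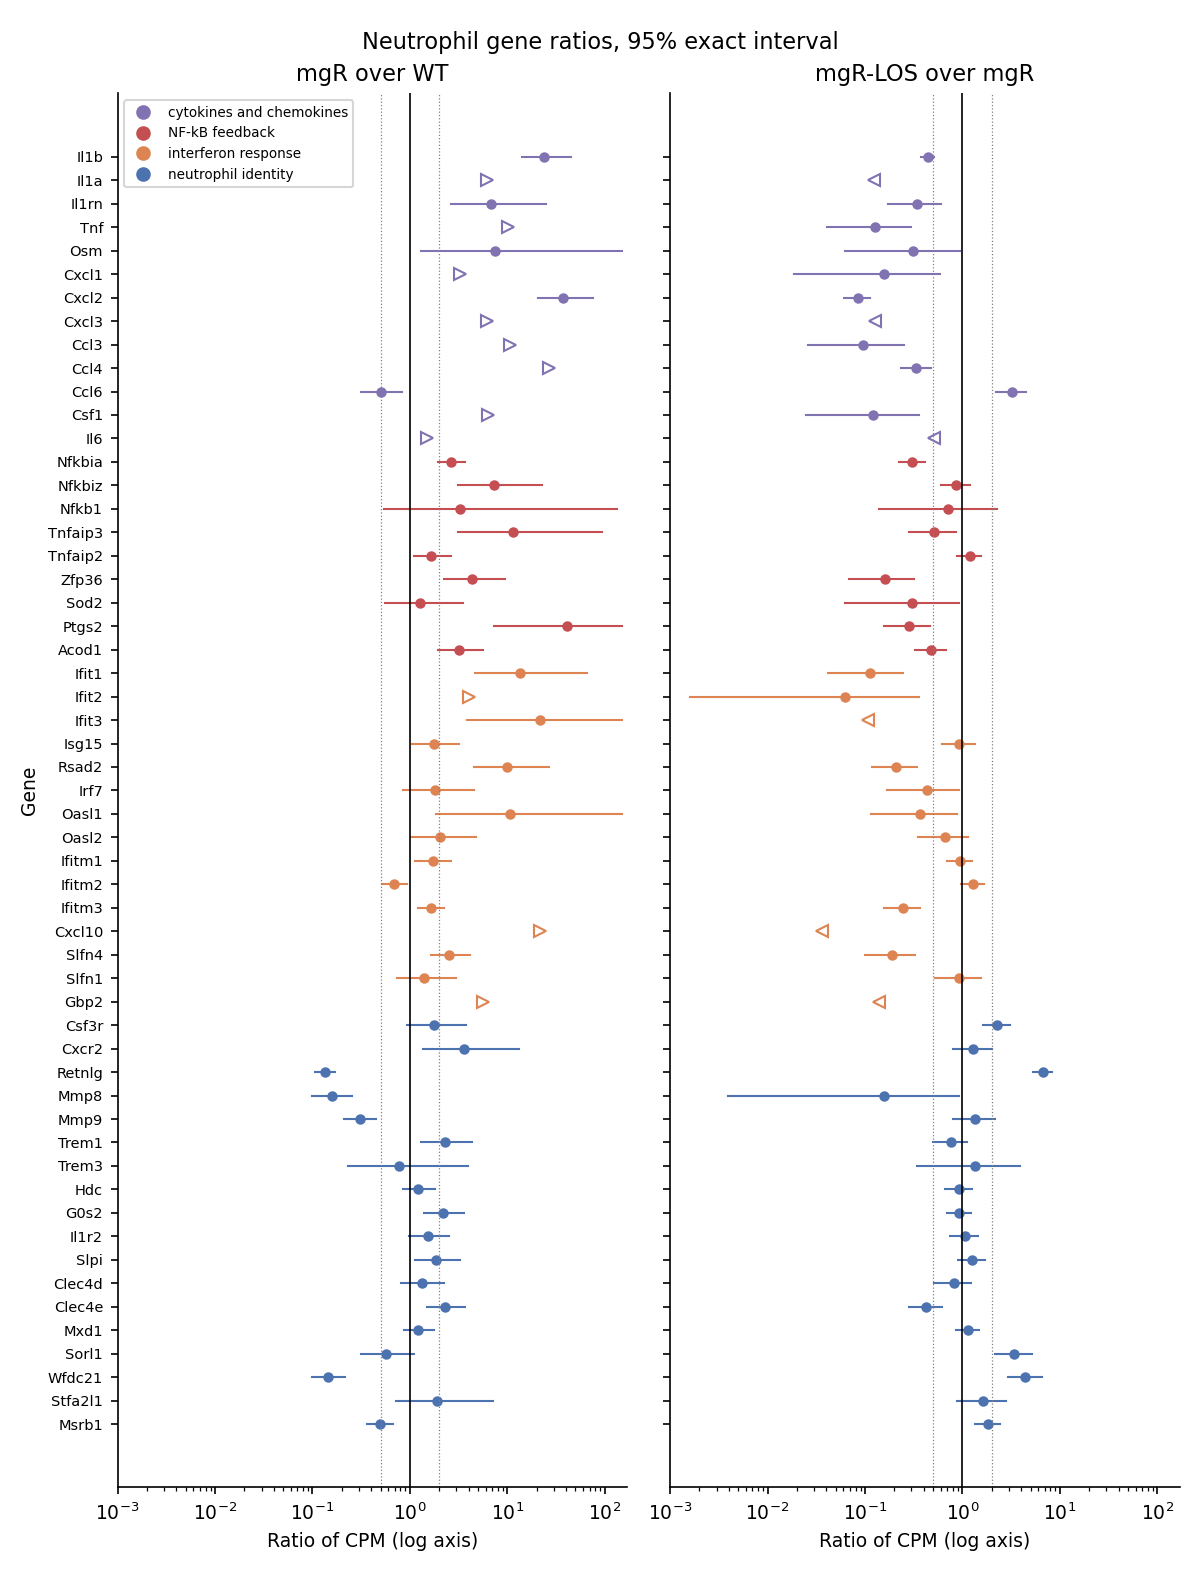
Ratio of neutrophil CPM in mgR over WT (left) and in mgR-LOS over mgR (right) on log axes for the genes of 4 lists tested in both, with 95% exact intervals drawn up to 150 and open triangles for bounds where 1 library had no UMI. Cytokine, NF-kB and interferon genes lie mostly right of 1 on the left and left of 1 on the right, while the identity genes lie on both sides.

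Neutrophil identity genes did not share one direction. Of 19 tested in mgR over WT, 4 were at least 2-fold higher and 6 at most 0.5 of WT, and of 18 tested in mgR-LOS over mgR 4 were at least 2-fold higher and 2 at most 0.5 of mgR. Over all genes these shares were 26.6% and 8.95% in the first comparison and 13.6% and 20.1% in the second. With the scaling that leaves out rule, mitochondrial, ribosomal and globin genes, the counts in mgR over WT were 1 and 7, where 18.9% and 15.5% of all genes were higher and lower. Without the deepest barcodes they were 2 and 5 of 18, where 11.1% and 23.9% of all genes were, so that 5 of 18 is near the share of all genes. Retnlg, a resistin-like secreted protein of mature blood neutrophils, was at 7536 CPM in WT, 1020 in mgR and 6799 in mgR-LOS. The mgR level was 0.135 of WT (0.107 to 0.172), and mgR-LOS was 6.67-fold higher than mgR (5.31 to 8.36). Its UMIs came from 4 of 4, 24 of 68 and 9 of 13 barcodes, and the alike pair gave 41.4% of the mgR UMIs. Wfdc21 had the same shape at 2880, 416 and 1841 CPM, with 0, 5, 11 and 31 UMIs in the 4 WT barcodes. Trem1, which amplifies inflammatory signals, was at 796, 1812 and 1369 CPM. The 10 largest ratios of mgR-LOS over mgR also held Taldo1 of the pentose phosphate pathway at 2030 against 387 CPM and Adgre5, the adhesion receptor CD97, at 1511 against 340 CPM.

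Granule genes rested on few barcodes. Ngp was at 18564 CPM in WT, 1079 in mgR and 47.2 in mgR-LOS, and Camp, the cathelicidin, at 10906, 281 and 0 CPM. All 303 Ngp UMIs and all 178 Camp UMIs of WT came from the deepest WT barcode, and all 184 and 48 of mgR from the alike pair. Of 6 tested granule genes, 5 were at most 0.5 of WT in mgR, against 8.95% of all genes, and 2 without the deepest barcodes, against 23.9% of all genes, where the ratio of Ngp turned to at least 3.26. Lcn2, which binds siderophores, was more widely found, in 3 of 4, 27 of 68 and 6 of 13 barcodes, but 93% of its WT UMIs were again in 1 barcode. Mmp8 and Mmp9, the neutrophil collagenase and gelatinase, were at 1899, 299 and 47.2 CPM and at 2389, 733 and 992 CPM. The alike pair gave 43 of the 51 mgR UMIs of Mmp8. The deepest WT barcode held 27 of 31 WT UMIs of Mmp8 and 33 of 39 of Mmp9, and without the deepest barcodes the ratio of mgR over WT was 0.677 for Mmp8 and turned to 1.11 for Mmp9. Mmp9 was found in 35 of 68 mgR and 9 of 13 mgR-LOS barcodes, and neutrophils held 20.3%, 42.8% and 13.1% of the Mmp9 UMIs of their library.

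The counts of receptor, survival and effector genes stand beside 26.6% higher and 8.95% lower of all genes in mgR over WT, and 13.6% and 20.1% in mgR-LOS over mgR. Here too, a gene without a WT UMI passed the filter through mgR alone and could not be counted as lower than WT. Of 15 tested chemotactic and pattern receptors, 7 were at least 2-fold higher in mgR than in WT, with a median ratio of 1.94, and 4 at most 0.5 of mgR in mgR-LOS, with a median of 0.822. Without the deepest barcodes 4 were higher and 2 lower in mgR over WT, with a median of 1.37, where 11.1% of all genes were higher and 23.9% lower, with a median of 0.815. Without called doublets 2 were higher and 2 lower in mgR-LOS over mgR, with a median of 1.08, where 18.0% of all genes were higher and 16.7% lower, with a median of 1.09. Cd14, the coreceptor for lipopolysaccharide, was at 1225, 3670 and 2314 CPM, and Cxcr4, the receptor that retains neutrophils in the marrow, at 429, 1085 and 897 CPM. Of 7 survival genes, 5 were at least 2-fold higher in mgR than in WT and 3 at most 0.5 of mgR in mgR-LOS. Bcl2a1d and Cdkn1a had no WT UMI, so their ratios over WT are bounds, and Bcl2a1a and Bcl2a1b had 1 WT UMI each. The first count was 2 without the deepest barcodes, with a median of 1.36 in place of 2.26, while the median of all genes went from 1.18 to 0.815 and their share from 26.6% to 11.1%. It was 3, against 18.9% of all genes, with the scaling that leaves out rule, mitochondrial, ribosomal and globin genes. The second count was 2 without called doublets, against 16.7% of all genes, with a median of 0.719 in place of 0.537. It was also 2 without the deepest barcodes, against 19.7%, and with that scaling, against 19.8%. Mcl1, on which neutrophil survival depends, was at 1593, 3600 and 2030 CPM. Of 6 NADPH oxidase genes, which make superoxide, 3 were at most 0.5 of WT in mgR and 1 at least 2-fold higher. Without the deepest barcodes 2 were at most 0.5, against 23.9% of all genes, and all 16 WT UMIs of Cybb, the catalytic subunit, came from the deepest WT barcode. Rac2 was at 1593, 487 and 803 CPM. Of 7 tested adhesion genes in mgR over WT, 1 was at least 2-fold higher and 2 at most 0.5, and of 8 in mgR-LOS over mgR 3 were at least 2-fold higher and 1 at most 0.5. Itgal, a subunit of LFA-1, was at 306, 123 and 425 CPM, and Icam1, its ligand, at 0, 692 and 236 CPM. Nlrp3, the sensor of the inflammasome that activates interleukin-1β, was at 429, 1178 and 661 CPM, and 1 of the 2 tested genes of its group was at least 2-fold higher in mgR. Without the deepest barcodes 0 of 7 adhesion and 0 of 2 inflammasome genes were that much higher in mgR than in WT, against 11.1% of all genes. Of 9 glycolysis and hypoxia genes, 1 was at least 2-fold higher and 2 at most 0.5 in mgR over WT, and 1 and 1 in mgR-LOS over mgR. Gapdh was at 858, 651 and 614 CPM.

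The inflammatory genes were also summed in each barcode. The summed level of 10 inflammatory genes (Il1b, Cxcl2, Cxcl3, Ccl3, Ccl4, Tnf, Il1rn, Il1a, Ptgs2 and Nfkbia) was 0, 46.7, 110 and 111 per 10000 UMIs in the 4 WT barcodes. In mgR it ran from 62.9 through a median of 570 to 1731, and in mgR-LOS from 23.8 through 119 to 570. Of 68 mgR barcodes, 65 lay above the highest WT barcode and 34 above the highest mgR-LOS barcode. Without called doublets, which include both mgR-LOS barcodes above 500, the highest of 6 mgR-LOS barcodes was 220.2, and 51 of 65 mgR barcodes lay above it. All 10 genes were at least 2-fold higher in mgR than in WT in the sums above, and at most 0.5 of mgR in mgR-LOS. Ccl6, which went the other way, was not in the panel, so that the panel restates those sums for single barcodes. On it the mgR barcodes overlapped little with WT, and the overlap with mgR-LOS was smaller without called doublets. These barcodes are cells of 1 pool each and not replicates.

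For the 15 interferon-responsive genes the median was 177 per 10000 UMIs in WT, 229 in mgR and 106 in mgR-LOS. The groups overlapped widely, and 28 of 68 mgR barcodes lay above the highest WT barcode and 23 above the highest mgR-LOS barcode, which was a called doublet. Without called doublets 40 of 65 lay above the highest mgR-LOS barcode. A circulating panel of Retnlg, Mmp8, Mmp9, Cxcr2, Slpi and Wfdc21 had medians of 141, 35.3 and 81.0, lowest in mgR. Without called doublets the medians were 35.6 in mgR and 63.9 in mgR-LOS. The panel is a choice from the identity genes, of which 4 of 19 tested were at least 2-fold higher in mgR than in WT. Its member Cxcr2 was lowest in WT, at 245, 874 and 1133 CPM. No mgR barcode exceeded the highest mgR-LOS barcode on this panel.

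**Figure D3:**
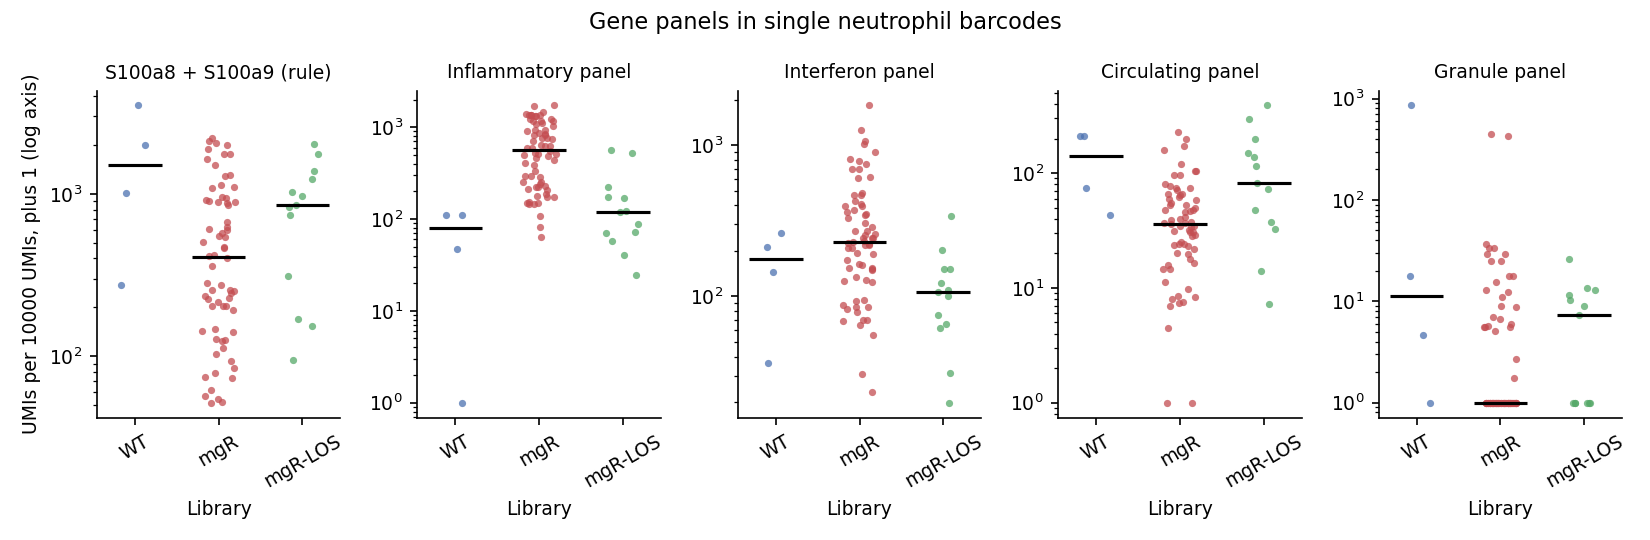
Level of each gene panel in every neutrophil barcode, as UMIs per 10000 UMIs plus 1 on a log axis, by library, with a line at the median. The inflammatory panel is highest in mgR, with a median of 570 against 78.2 in WT and 119 in mgR-LOS, the circulating panel is lowest there, and granule genes pass 100 in 1 WT and 2 mgR barcodes.

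Within the mgR library the inflammatory panel and the circulating panel ran against each other, with a Spearman rho of -0.35 over 68 barcodes, and Il1b and Cxcl2 ran together, with a rho of 0.56. In mgR-LOS, over 13 barcodes, the same pairs had a rho of -0.38 and 0.043. In mgR the rho was -0.16 between the inflammatory and interferon panels and 0.13 between depth and the inflammatory panel. All these shares are parts of the same UMI total of a barcode, and the values are a description.

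At equal depth the shares of barcodes with a UMI had wide intervals, which overlapped between mgR and mgR-LOS for both Il1b and Cxcl2. With each barcode thinned to 500 UMIs, 95.6% (87.6 to 99.1) of mgR neutrophils and 84.6% (54.6 to 98.1) of mgR-LOS neutrophils had an Il1b UMI, and 50% (6.76 to 93.2) of those in WT. For Cxcl2 the shares in the same order were 82.4% (71.2 to 90.5), 46.2% (19.2 to 74.9) and 25% (0.631 to 80.6). Without thinning they were 94.1%, 53.8% and 75% for Cxcl2. Smooth muscle barcodes, given for comparison, had 1.20%, 0.687% and 0.128% for Il1b and 2.35%, 1.26% and 0.383% for Cxcl2 in mgR, mgR-LOS and WT at 500 UMIs. Their median depth before thinning was 14737.5, 8501 and 14123 UMIs. Whether smooth muscle cells express these genes themselves was not tested.

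In macrophages of the same libraries Il1b and Cxcl2 were not higher in mgR than in WT. Their Il1b level was 2813 CPM in WT, 2534 in mgR and 2452 in mgR-LOS, with ratios of 0.901 (0.864 to 0.940) and 0.968 (0.944 to 0.991), and their Cxcl2 level was 9226, 8479 and 6719 CPM. The interval of mgR over WT in neutrophils, 14.0 to 45 for Il1b and 20.9 to 74.9 for Cxcl2, did not meet that of macrophages. Rsad2 in macrophages was at 42.8, 74.5 and 114 CPM, higher in mgR-LOS than in mgR with a ratio of 1.52 (1.34 to 1.73), where neutrophils had 0.208 (0.118 to 0.341). Over the cytokine, chemokine and interferon-responsive genes, the intervals lay on opposite sides of 1 in the 2 cell types for 8 of 28 genes in mgR over WT and 7 of 28 in mgR-LOS over mgR, against 4.23% of 1299 and 5.2% of 1366 genes tested in both. Il1a, Tnf, Cxcl3, Ccl3 and Cxcl10, counted in the first, had no WT neutrophil UMI. Ifit3 and Cxcl10, counted in the second, had none in mgR-LOS. These genes passed the filter through mgR alone, so their neutrophil intervals could not lie on the other side of 1. Macrophage intervals were narrow, so that a ratio as near 1 as 0.919 for Cxcl2 was counted.

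C1q-low myeloid barcodes were also highest in mgR for these genes. Il1b was at 1375 CPM in WT, 4806 in mgR and 3036 in mgR-LOS, and Rsad2 at 7.09, 221 and 2.10 CPM. Tnf was 10.2-fold higher in mgR than in WT (3.47 to 49.6), from 3 UMIs in WT, and in mgR-LOS was 0.228 of mgR (0.166 to 0.308). Ccl4 was 31.4-fold higher (10.7 to 152) and then 0.0835 of mgR (0.0623 to 0.110), and Cxcl10 16.4-fold (5.60 to 79.7) and 0.428 (0.356 to 0.511). Smooth muscle barcodes held 0.656, 19.8 and 25.6 CPM of Il1b. The part of free RNA in these values was not tested. Each difference compares libraries of 1 pool, and a test over animals was not possible.

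**Figure D4:**
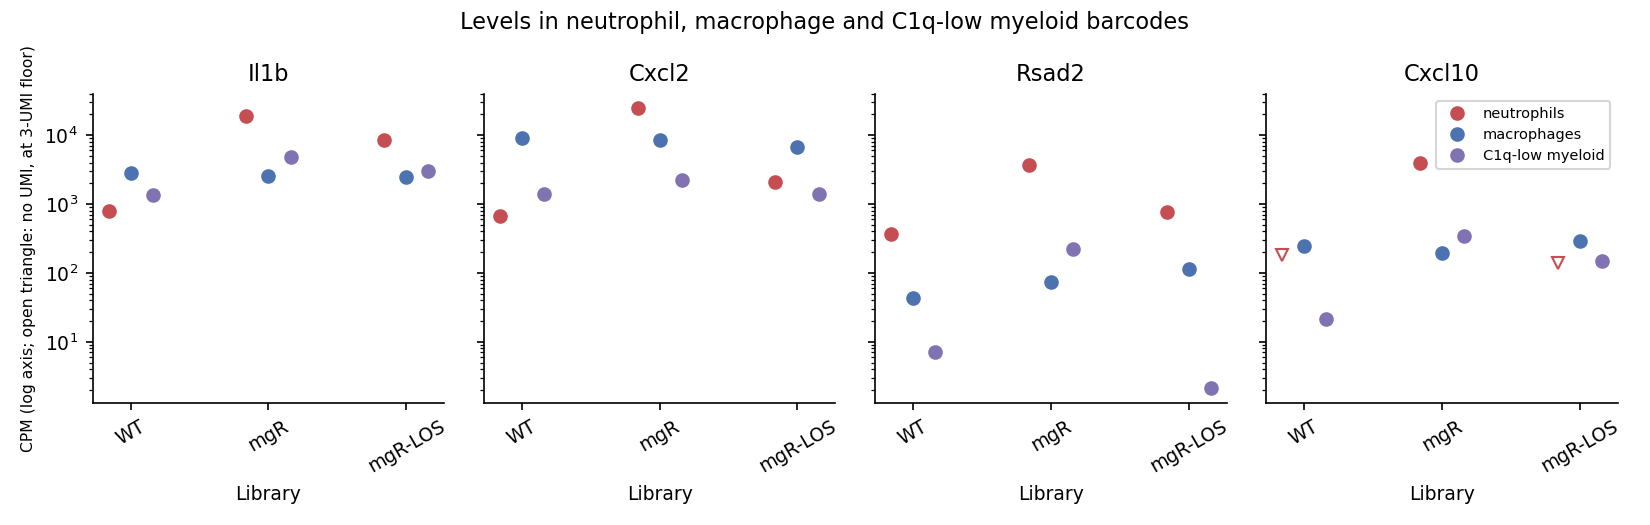
CPM of Il1b, Cxcl2, Rsad2 and Cxcl10 on a log axis in neutrophil, macrophage and C1q-low myeloid barcodes of each library, with open triangles at the floor of 3 UMIs where no UMI was found. Neutrophil points peak in mgR for each gene, and macrophage points vary far less, between 2452 and 2813 CPM for Il1b.

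Neutrophils held a small part of the cytokine transcripts of the tissue. Of all Il1b UMIs in passing barcodes, neutrophils held 0.477% in WT, 8.01% in mgR and 1.16% in mgR-LOS, and macrophages 89.3%, 51.1% and 60.6%. Of Cxcl2, neutrophils held 0.123%, 4.67% and 0.130%, and macrophages 89.4%, 75.5% and 74.0%. For Rsad2 the neutrophil part in mgR was 24.3%, from 0.802% of the barcodes, and for Cxcl10 it was 9.85%. Retnlg, in contrast, was found nearly in neutrophils alone, which held 100%, 93.5% and 94.1% of its UMIs.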

How the data were processed

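The authors deposited raw UMI counts as 3 matrices of 32285 genes, with no scaling, from the 10x Genomics 3′ v3.1 kit, aligned to mm10 (GRCm38). The file headers give CellRanger 5.0.1 for WT and mgR and 6.0.1 for mgR-LOS, and the submitters' processing notes 6.0.1 for all. The deposited counts hold 7858, 10657 and 14663 barcodes with 83338726, 123956320 and 121436873 UMIs in WT, mgR and mgR-LOS.

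UMIs were summed over neutrophil barcodes per library and divided by the library's neutrophil total (CPM), with floors of 184, 17.6 and 142 CPM for 3 UMIs. Ratios used genes with at least 20 UMIs over both libraries, 78 repeated symbols left out. A gene without a UMI in 1 library passed this filter through the other alone, and its ratio is a bound. Shares have Clopper-Pearson, levels Poisson and ratios conditional binomial intervals, at 95%. Doublets were called with simulated pairs and kept. Named genes were the list genes, the rule genes, the 15 highest against each myeloid population and the 10 largest and smallest ratios at 200 CPM or more. Members and lists were chosen with earlier results of these data known. Scripts were tested on simulated data. Python 3.11.15, numpy 2.4.6, scipy 1.17.1 and scikit-learn 1.9.0 were used. Alternatives varied the limits, the rule, the scaling, the filter and the fold. 1 gene of the adhesion list and of the circulating panel is not reported here and was left out of both.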

Additional observations from a re-analysis of the deposited data

Results flagged for a closer look

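Among the cytokine, chemokine and interferon-responsive genes, 28 could be set side by side in neutrophils and macrophages in each comparison. In 8 of 28 for mgR over WT and 7 of 28 for mgR-LOS over mgR, the 95% counting intervals lay on opposite sides of 1 in the 2 cell types, against 4.23% and 5.2% of all genes tested in both. The difference was not tested over animals, since each group was 1 library. Genes without a UMI in WT or mgR-LOS neutrophils passed the filter through mgR alone. Their neutrophil ratios, given below as at least or at most, are bounds, and their intervals could not lie on the other side of 1.

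In mgR over WT, the neutrophil ratio was 23.9 for Il1b, at least 6.22 for Il1a, at least 10.2 for Tnf, 37.4 for Cxcl2, at least 6.16 for Cxcl3, at least 10.7 for Ccl3 and at least 21.4 for Cxcl10, where the macrophage ratios lay between 0.553 (Il1a) and 0.919 (Cxcl2). Without the deepest WT barcode the neutrophil ratios were 12.2 for Il1b and 19.1 for Cxcl2, and the bounds were at least 3.18 for Il1a, 5.22 for Tnf, 3.15 for Cxcl3, 5.46 for Ccl3 and 11 for Cxcl10. C1q-low myeloid barcodes were also higher in mgR than in WT, at 3.5 for Il1b, 1.59 for Cxcl2, 10.2 for Tnf, 21.7 for Ccl3 (from 1 UMI in WT) and 16.4 for Cxcl10. Ccl6 went the other way, at 0.505 in neutrophils and 1.35 in macrophages. In mgR-LOS over mgR, the neutrophil ratio was 0.121 for Csf1, 0.113 for Ifit1, 0.0629 for Ifit2, at most 0.106 for Ifit3, 0.208 for Rsad2, 0.363 for Oasl1 and at most 0.0360 for Cxcl10. The macrophage ratios of these genes lay between 1.32 (Oasl1) and 1.68 (Ifit2). C1q-low myeloid barcodes, like neutrophils, were lower in mgR-LOS than in mgR, at 0.0194 for Ifit1, 0.0100 for Ifit3, 0.00951 for Rsad2 and 0.428 for Cxcl10.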

How the results depend on the processing

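No paired analysis was possible because each group was 1 library. The share of passing barcodes moved beyond its interval in mgR with a mitochondrial limit of 5% (1.23%) and in mgR-LOS without called doublets (0.0523%, 6 barcodes), and by construction with leukocytes as the base (2.74%, 4.08% and 1.65%). Against main counts of 354 higher and 119 lower genes in mgR over WT and 189 and 280 in mgR-LOS over mgR, a filter of 10 UMIs gave 626 lower in the first and 601 higher in the second, a filter of 50 UMIs 197 and 49, and 55 and 155, no filter 6897 lower and 6761 higher (set by the floor of 3 UMIs), a fold of 1.5 242 lower and 355 higher, and a fold of 3 166 and 48, and 62 and 135. Without called doublets 233 genes were higher and 216 lower in mgR-LOS over mgR, so that the balance of these calls turned. In mgR over WT, ratios divided by their median gave 179 lower, scaling without rule, mitochondrial, ribosomal and globin genes 234 higher and 191 lower, and leaving out the deepest barcode of each library 135 higher and 291 lower and the deepest WT barcode alone 138 and 350, so the split of calls depends on the scaling and on 1 WT barcode. These 2 alternatives, added after seeing the data, reversed Ngp (at least 3.26 and 3.00), Ltf (at least 1.12 and 1.03), Lcn2 (1.17 and 1.08) and Mmp9 (1.11 and 1.02) in mgR over WT. With S100a8 plus S100a9 of at least 100, Apoe (1.22) and Lyz2 (1.45) reversed in mgR-LOS over mgR. Leaving out 1 of the alike pair, also added after seeing the data, moved none of the shares and counts of genes. No direction of another named gene past 2-fold that was recomputed was reversed. The cause was not tested. WT rests on 4 barcodes and mgR-LOS on 13, which limits every level there.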
